A study of Mus musculus with 30 samples.

Results

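Chromatin accessibility was examined at 33 mouse genes for potassium channel pores and their partner subunits, in nuclei of the ventral hippocampus. The members were the channel genes of 9 subfamilies, and their accessible regions were the deposited ATAC-seq regions that overlapped the RefSeq body of a member extended by 10 kb on both sides. This gave 1275 regions (peaks) of 257149 in all, 1161 of them touching a gene body, and no peak fell to more than 1 member. The members are called voltage-gated as a group, but Kcnn1 to Kcnn3 are gated by calcium and Kcnt1 and Kcnt2 mainly by sodium, and the Kv-beta and KChIP genes code for cytoplasmic partners rather than pores.

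The libraries came from 30 samples of ventral hippocampus, 1 hippocampus each, 15 from females and 15 from males, spread over 4 batches. Mice had either been handled or restrained daily in a tube for 10 days (chronic restraint), and after a day of single housing tissue was collected either straight from the home cage (0 min) or once 45 min had passed from the onset of a restraint (acute restraint), so that the acute restraint was the first for handled mice. There were 8 handled mice at 0 min, 7 handled at 45 min, 8 chronically restrained at 0 min and 7 chronically restrained at 45 min. Every batch held all 4 groups. Strain and age are not given in the sources used here, and the number in each library's title is used below as the animal number. The libraries hold all cell types of the tissue mixed, so a change within a cell type and a change in its share cannot be told apart.

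Potassium channels let potassium leave the cell and so bring a depolarized membrane back toward rest. Neurons combine many of them: Kv1 channels of the axon limit repetitive firing, Kv3 channels repolarize fast-spiking cells quickly, Kv4 channels with their KChIP partners carry the A-type current of dendrites, Kv7 channels carry the M-current, and calcium-activated channels produce the afterhyperpolarization. ATAC-seq uses a transposase that inserts into open DNA, and so reads the accessibility of promoters and enhancers and not the amount of channel made.

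Promoter sequences are shown for 5 members that mark the ends of the accessibility range or of the response to restraint described below. Each is the RefSeq sequence of GRCm38.p6 from 250 bases before to 50 bases after a transcription start, 5′ to 3′ on the strand of the gene, and capitals mark matches to 6 short motifs. Kcnn1 lies on the minus strand at chr8:70856959-70857258, Kcnab2 on the minus strand at chr4:152477500-152477799, Kcnt2 on the plus strand at chr1:140245468-140245767, Kcna4 on the plus strand at chr2:107290339-107290638 and Kcna5 on the minus strand at chr6:126535506-126535805.
Kcnn1: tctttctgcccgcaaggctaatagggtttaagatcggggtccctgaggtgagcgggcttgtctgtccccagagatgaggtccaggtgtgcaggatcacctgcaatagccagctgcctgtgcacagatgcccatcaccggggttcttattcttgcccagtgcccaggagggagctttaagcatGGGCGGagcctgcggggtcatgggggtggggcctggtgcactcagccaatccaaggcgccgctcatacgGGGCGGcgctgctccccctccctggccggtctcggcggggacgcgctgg
Kcnab2: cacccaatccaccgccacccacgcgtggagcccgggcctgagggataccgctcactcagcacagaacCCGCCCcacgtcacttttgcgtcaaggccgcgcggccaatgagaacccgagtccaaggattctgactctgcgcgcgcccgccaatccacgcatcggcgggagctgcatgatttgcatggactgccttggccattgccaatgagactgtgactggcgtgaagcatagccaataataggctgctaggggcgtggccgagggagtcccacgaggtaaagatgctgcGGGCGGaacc
Kcnt2: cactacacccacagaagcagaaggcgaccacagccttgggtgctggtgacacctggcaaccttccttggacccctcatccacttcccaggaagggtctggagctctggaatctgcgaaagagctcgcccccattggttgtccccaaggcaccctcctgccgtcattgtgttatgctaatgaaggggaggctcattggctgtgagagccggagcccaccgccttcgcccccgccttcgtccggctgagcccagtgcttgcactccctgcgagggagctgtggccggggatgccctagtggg
Kcna4: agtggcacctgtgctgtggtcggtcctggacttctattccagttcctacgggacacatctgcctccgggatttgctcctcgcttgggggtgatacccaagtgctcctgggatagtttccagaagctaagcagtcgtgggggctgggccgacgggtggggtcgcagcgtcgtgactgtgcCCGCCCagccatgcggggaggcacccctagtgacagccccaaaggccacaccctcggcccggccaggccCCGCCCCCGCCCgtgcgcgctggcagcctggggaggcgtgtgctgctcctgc
Kcna5: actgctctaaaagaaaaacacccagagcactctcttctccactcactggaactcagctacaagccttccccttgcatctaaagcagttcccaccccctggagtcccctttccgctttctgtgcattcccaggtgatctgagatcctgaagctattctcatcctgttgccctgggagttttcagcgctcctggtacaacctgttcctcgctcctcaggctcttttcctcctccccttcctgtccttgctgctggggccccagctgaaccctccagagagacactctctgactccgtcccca

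The motifs searched on both strands were the GC box GGGCGG, the cAMP response element TGACGTCA, the E-box CACGTG, the AP-1 site TGANTCA, the glucocorticoid receptor half-site AGAACA and the TATA sequence TATAAA. Overlapping matches were merged in the capitals. All capitals in the sequences above are GC boxes, of which Kcnn1 and Kcnab2 had 2 each and Kcna4 had 3, while Kcnt2 and Kcna5 had no match to any of the 6. RefSeq gave 39 such promoters for 25 of the 33 members, and 19 of the 39 (48.7%) held a GC box, against 35.9% of 32544 mouse promoters of the same length. The glucocorticoid half-site was in 6 of 39 (15.4%, against 18.9%), AP-1 in 2 (5.1%, against 7.8%), the E-box in 2 (5.1%, against 7.2%), TATA in 1 (2.6%, against 13.6%) and the cAMP element in 0 (against 1.8%). Promoters of the same gene can overlap, as at Kcnc2, so the 39 are not independent. The GC box matches lay in 18 genes, those of the half-site in 3 and those of the E-box in 1. The median GC content of the 39 promoters was 62.3%, against 53.0% for all promoters. Among the 39 starts, 35 lay inside a peak, and all 25 genes had at least 1 start in a peak. The 4 starts outside a peak belonged to alternative promoters of Kcnab1 (at 2 sites), Kcnip1 and Kcnip4, and had a median of 5.5 CpG sites, against 16.0 for the 35 inside.

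The members differed widely in how much open chromatin they held. Kcnma1, the pore of the large-conductance calcium-activated channel, had 263 peaks over 712.8 kb, followed by Kcnh1 with 135, Kcnd3 with 110, Kcnn3 with 84 and Kcnab1 with 82. Per 100 kb of gene and flanks, Kcnn3 was densest with 48.8 peaks and Kcnd3 had 45.4, whereas Kcnh7 had 2.3 and Kcnh5 had 1.3. The Shaker gene Kcna5, which is best known from heart and smooth muscle, had a single peak of 873 bp.

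Counting reads rather than peaks gave another order. The gene sum, the counts of all peaks of a gene scaled to the library as CPM, was divided by the length of the gene and its flanks. It was highest at Kcnn1 with 6.97 CPM per kb, Kcnab2 with 5.84, Kcnh3 with 4.62, Kcnc4 with 4.51 and Kcnip2 with 4.15, and lowest at Kcnip4 with 0.053, Kcnh7 with 0.043 and Kcnh5 with 0.043. These sums include peaks that also overlap other protein coding genes, 3 of 7 at Kcnn1 and 7 of 15 at Kcnab2. At Kcnh3 these were 2 of 9, at Kcnc4 1 of 11 and at Kcnip2 5 of 18. A peak reaching past the window was counted in full. Peaks covered 97.5% of the window of Kcnab2 and 0.8% of that of Kcnh5. The dense genes are short and carried broad peaks, with the widest of Kcnn1 at 19076 bp. The 3 sparsest are longer, with 1136 kb for Kcnip4, 490.9 kb for Kcnh7 and 280.1 kb for Kcnh5. Length alone did not set the order, as Kcnma1 with 712.8 kb had 0.94 CPM per kb.

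**Figure D1:**
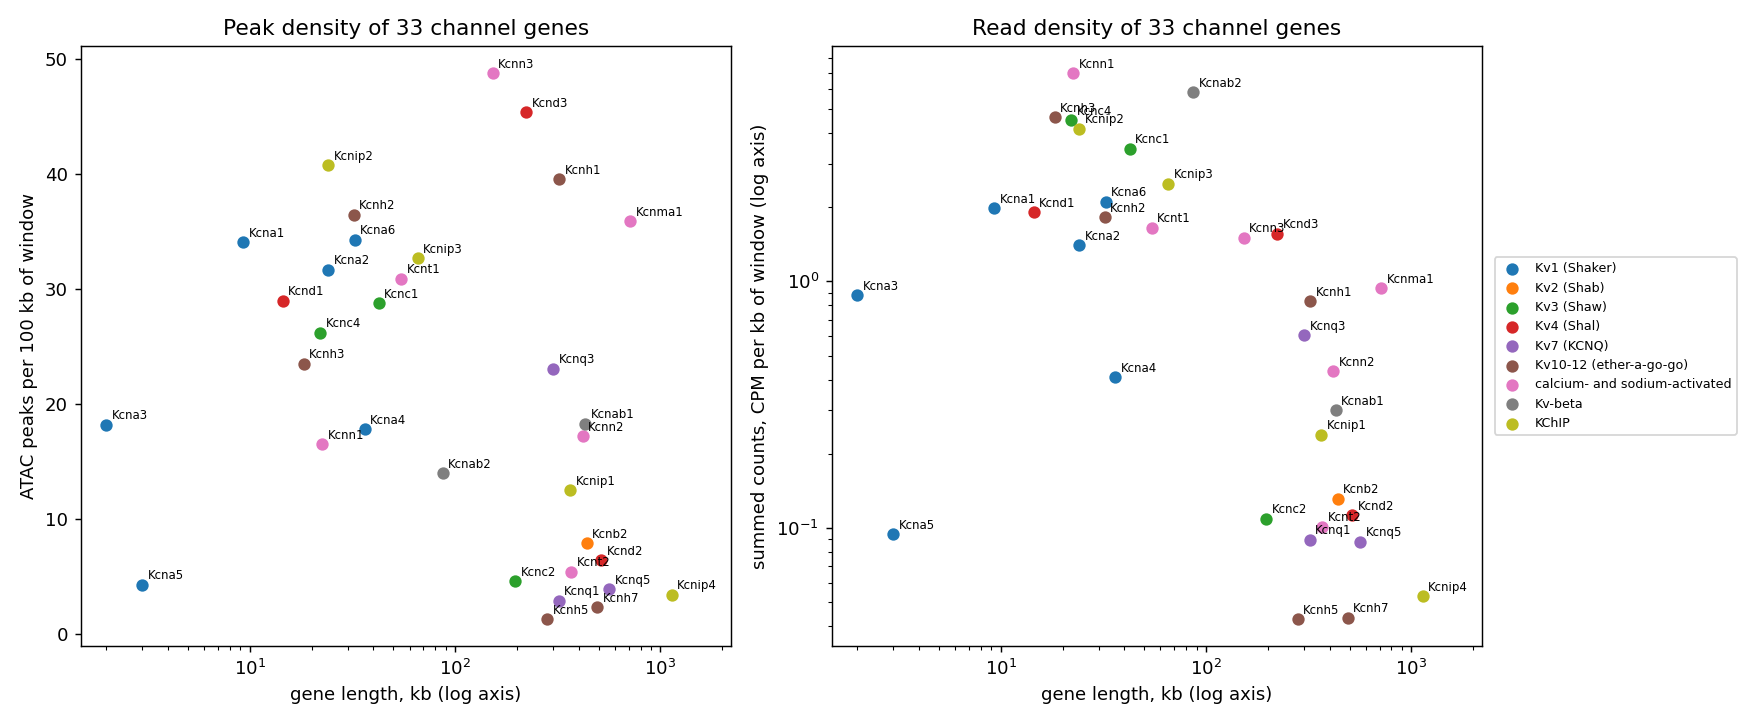
Peaks per 100 kb (left) and summed CPM per kb (right, log axis) of each of the 33 genes against gene length in kb (log axis), 1 point per gene, coloured by subfamily. Kcnn3 and Kcnd3 stand highest on the left with 48.8 and 45.4 peaks per 100 kb, Kcnn1 and Kcnab2 highest on the right with 6.97 and 5.84 CPM per kb, and the long genes Kcnh5, Kcnh7 and Kcnip4 lowest. Peaks that also overlap neighbouring genes are included.

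At starts and gene ends, density was CPM per kb of the peak itself and not of the window. It is therefore not compared with the gene sums per kb. The strongest peak within 1 kb of a RefSeq start was taken for the 25 members with a listed start. For the other 8 (Kcna1, Kcnb2, Kcnd1, Kcnh3, Kcnn2, Kcnq1, Kcnq3 and Kcnt1) the strongest peak at either gene end stood in its place, which need not be a start. Such a peak was found for 32 of the members and not for Kcnq1, and its density ran from 2.49 CPM per kb at Kcna5 to 9.27 at Kcnab2. Within the Shaker genes Kcna4, which forms an inactivating channel, had the highest start density with 5.83 CPM per kb. In the ether-a-go-go subfamily Kcnh1 (6.60 CPM per kb) was above Kcnh2 (3.16), the gene of the cardiac delayed rectifier hERG. The only listed start of Kcnh2, on the minus strand at chr5:24329591, lies inside its body (chr5:24319589-24351684). The outer 5′ end of Kcnh2 was therefore not part of this comparison. In the calcium- and sodium-activated subfamily the start of Kcnn1 had the highest density (6.71), and the lowest was that of a gene-end peak, at Kcnt1 (3.84). Kcnip3 (5.74) was above Kcnip4 (2.85) among the KChIP genes, Kcnd2 (5.30) above the gene-end peak of Kcnd1 (3.80) among the Shal genes, Kcnc1 (5.69) above Kcnc4 (4.29) among the Shaw genes, and the gene-end peak of Kcnq3 (6.68) above Kcnq5 (5.14) among the KCNQ genes. The start of Kcnip4 used here, on the minus strand at chr5:49285659, also lies inside its body, which ends at 49525122. Its peak was 273 bp wide with a mean count of 30.8, so the low ranks of Kcnh2 and Kcnip4 depend on which starts were listed. Kcnab1, the other Kv-beta gene, had 6.20. Kcnb2, the only Shab gene here, had 5.14 at a gene end. The start peak of Kcnh5 (6.28 CPM per kb) was exceeded only by Kcnab2, Kcnn1, Kcnh1 and the gene-end peak of Kcnq3. It stood in a window that was otherwise almost closed.

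Compared with all peaks of the table, the channel peaks were of ordinary size and depth. Their median width was 570 bp against 561, and their median mean count 58.7 against 58.97. A smaller share, 5.96% against 10.4%, touched the 1 kb around a gene end, and 37 were wider than 5 kb (2.90% against 2.09%). Another protein coding gene overlapped 41 of the 1275.

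Total counts ran from 26104576 to 55294838 per library, and the strongest 1% of peaks took a median of 20.5% to 20.6% of the counts in each group. The library of animal 45 (handled, 0 min) stood apart. It had the highest share in the strongest peaks (21.45%), and its sum over all member peaks depended on the scaling: 5444 CPM with the factors estimated on peaks, the highest of 30, but 4609 with those estimated on gene sums and 4766 with library totals alone, the lowest of 30 on both. The called gene sums and the acute differences of the named peaks of Kcnb2 and Kcnip1 are given below with and without it. Most other named peaks are given with it only. Peaks at a start or gene end were present at 7 of 9 inhibitory neuron markers, 6 of 8 excitatory, 6 of 6 oligodendrocyte, 2 of 3 oligodendrocyte precursor, 5 of 6 astrocyte, 4 of 5 microglia and 3 of 5 endothelial and mural markers. They were also present at 6 of 7 markers of neighbouring brain regions and at 1 of 4 choroid plexus markers.

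Subfamily sums were nearly level over the 4 groups. All members together had 4983 ± 182 CPM in handled mice at 0 min (SD, n = 8), 5037 ± 95.2 in handled mice at 45 min (n = 7), 5023 ± 63.7 in chronically restrained mice at 0 min (n = 8) and 5091 ± 100 in chronically restrained mice at 45 min (n = 7). In the same order, the calcium- and sodium-activated channels had 1574 ± 84.3, 1597 ± 28.6, 1586 ± 21.0 and 1614 ± 34.7 CPM, and Kv-beta had 743 ± 26.3, 762 ± 30.5, 753 ± 21.8 and 779 ± 22.7. The Kv1 genes had 274 ± 8.09, 276 ± 2.95, 271 ± 6.85 and 277 ± 5.24 CPM. In each of these the group ranges overlapped. Animal 45 was the lowest handled library at 0 min for all members (4609 CPM) and for the calcium- and sodium-activated sum (1390 CPM), which lowers those means and widens their SD. The group medians, in the same order, were 5031, 5025, 5019 and 5079 CPM for all members. For the calcium- and sodium-activated channels they were 1606, 1597, 1584 and 1624 CPM.

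The pore families of the fast and A-type currents were as level. Kv3 had 421 ± 19.7, 426 ± 15.0, 433 ± 10.3 and 433 ± 16.4 CPM in that order of groups, Kv4 had 503 ± 19.04, 507 ± 9.07, 502 ± 8.61 and 502 ± 12.1, and the KChIP partners had 548 ± 10.9, 548 ± 10.9, 548 ± 6.76 and 553 ± 10.5. Kv7 had 277 ± 9.20, 276 ± 4.86, 275 ± 7.60 and 274 ± 3.23 CPM, and Kv10-12 had 580 ± 28.7, 585 ± 21.8, 592 ± 15.2 and 600 ± 14.2. Kv2, here only Kcnb2, was the one subfamily with both 45 min means (58.5 ± 1.37 and 57.9 ± 1.85 CPM) more than 1 SD of the 0 min handled group below the 0 min means (61.8 ± 1.94 and 61.8 ± 3.18).

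**Figure D2:**
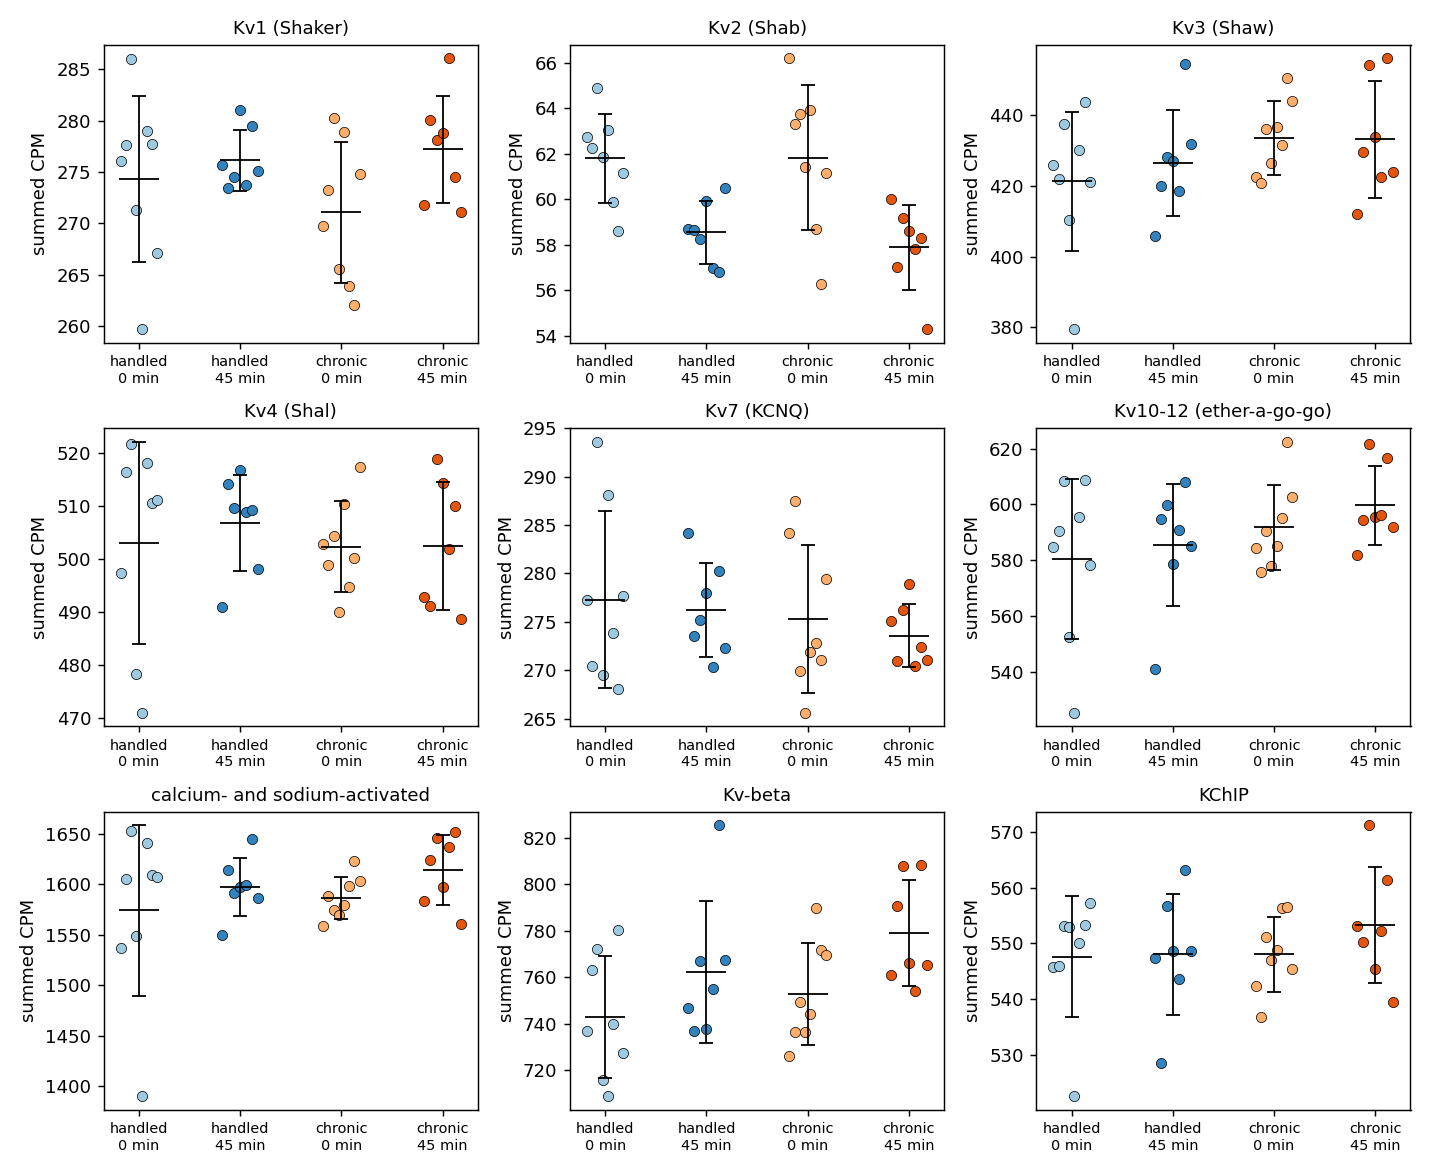
Summed CPM of the genes of each subfamily by group, 1 point per library, with the mean and SD as bars. The axes do not start at 0. The groups overlap in every panel, and Kv2 is lower at 45 min (means 58.5 and 57.9 CPM) than at 0 min (61.8 in both histories).

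The effect of acute restraint, 45 min against 0 min averaged over both histories, was tested peak by peak and gene by gene in edgeR's quasi-likelihood test with sex and batch as terms, and called at a Benjamini-Hochberg adjusted p under 0.05 over the whole table. Among gene sums, 2 of 33 were called, Kcnn1 higher and Kcnb2 lower, against 1.10% of 34935 genes. At an unadjusted p under 0.05, 5 genes were higher (15.2%, against 6.06% of all genes) and 5 lower (15.2%, against 6.48%). Here and below, the members were not matched to all genes for length or number of peaks, and the difference of such shares was not tested. The median change of the 33 was 0.01 and that of all genes -0.00 on the log2 scale, and all 33 lay between -0.09 and 0.07.

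Kcnb2 codes for Kv2.2, a slowly inactivating delayed rectifier. Its gene sum in handled mice was lowest at 58.6, median 62.0 and highest 64.9 CPM at 0 min, and 56.8, 58.6 and 60.5 at 45 min. After chronic restraint it was 56.3, 62.3 and 66.2 at 0 min, and 54.3, 58.3 and 60.0 at 45 min. Most libraries at 45 min were thus low, but the groups overlapped in both histories. The gene sum fell by 0.08 ± 0.018 (SE) on the log2 scale, adjusted p = 0.0134 by edgeR's quasi-likelihood test. The difference was -0.07 in handled and -0.09 in chronically restrained mice, and -0.09, -0.10, -0.04 and -0.08 within batches 1 to 4. Without animal 45 it was -0.08 (edgeR adjusted p = 0.0104). It was called under 14 of 19 alternative settings, with adjusted p from 0.00069 to 0.935, and the call was lost without batch 1, 2 or 4 and in either sex alone.

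Most peaks of Kcnb2 had negative differences. Of its 36 peaks, 3 of which overlap the predicted gene Gm51415, 27 had a negative and 9 a positive difference, 5 fell and 0 rose at an unadjusted p under 0.05, and the median was -0.07, against -0.00 for all peaks. The smallest p belonged to a peak inside the gene at chr1:15482525-15484234, 196.5 kb from the lower-numbered gene end. Its level was lowest at 8.31, median 10.0 and highest 16.2 CPM in handled mice at 0 min and 6.80, 8.43 and 9.33 at 45 min. With chronic restraint it was 8.68, 9.48 and 12.3 CPM at 0 min and 7.51, 8.29 and 8.84 at 45 min. The highest value was that of animal 45, and the times overlapped. Over both histories the mean of this peak was 10.1 CPM at 0 min (n = 16) and 8.29 at 45 min (n = 14). The gene sum, which is scaled separately, had means of 61.8 and 58.2 CPM. The part of this peak in the fall of the gene sum was not tested. The difference of the peak was -0.26 ± 0.061 (SE), edgeR adjusted p = 0.0611, which misses the threshold. Without animal 45 the difference was -0.22 and the adjusted p 0.0152. Over the 19 alternatives the adjusted p ran from 4.3e-05 to 1, with 3 calls, but those that change only the gene window refit no peak. The peak at the gene end near chr1:15285757-15288043 had a difference of -0.03 ± 0.048.

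Kcnn1 codes for SK1, a small-conductance channel opened by calcium through calmodulin. The gene sum in handled mice was lowest at 273.5, median 288.7 and highest 313.4 CPM at 0 min, and 296.8, 304.4 and 331.0 at 45 min. After chronic restraint it was 270.2, 288.9 and 302.6 at 0 min, and 286.0, 297.8 and 312.4 at 45 min. Libraries at 45 min lay higher, with overlap in both histories. It rose by 0.07 ± 0.014 (SE) on the log2 scale, adjusted p = 0.0099 by edgeR's quasi-likelihood test, with 0.08 in handled and 0.05 in chronically restrained mice and 0.04, 0.09, 0.07 and 0.07 within batches 1 to 4. Without animal 45 it was 0.07 (edgeR adjusted p = 0.0051). It was called under 13 of 19 alternatives, with adjusted p from 0.00133 to 0.705, and lost without batch 2 or 3, in either sex alone, with flanks of 50 kb and without peaks over 5 kb.

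All 7 peaks of Kcnn1 had positive differences, but its reads came mostly from 2 broad peaks shared with neighbours. The peak at chr8:70853487-70872562 (128 CPM) holds the start shown above and also overlaps Ccdc124, and its difference was 0.05 ± 0.031 (adjusted p = 0.758). The peak at chr8:70831274-70847356 (117 CPM) overlaps Arrdc2, and had 0.08 ± 0.034 (adjusted p = 0.547). Arrdc2 itself, an arrestin-domain gene, had a gene sum that rose by 0.08 ± 0.017 (edgeR adjusted p = 0.0046), and Ccdc124 had 0.06 ± 0.018 (adjusted p = 0.13). Both broad peaks also touch the body of Kcnn1, so that a sum over body peaks keeps the shared reads. Without peaks over 5 kb the difference was 0.05 and no longer called (adjusted p = 0.435). The share of the neighbours in the result cannot be told apart with these windows.

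**Figure D3:**
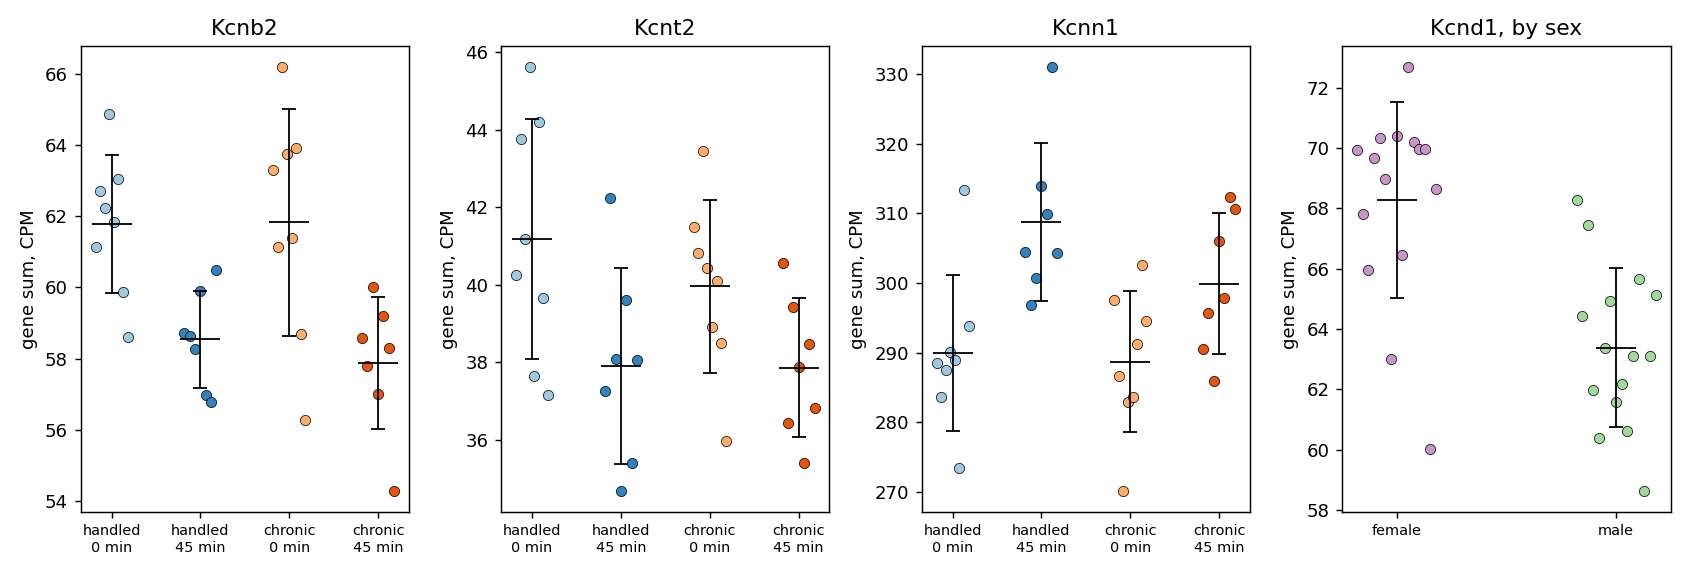
Gene sums in CPM of Kcnb2, Kcnt2 and Kcnn1 by group and of Kcnd1 by sex, 1 point per library, with the mean and SD as bars. The axes do not start at 0. Kcnb2 lies lower at 45 min (means 58.5 and 57.9 against 61.8 CPM), Kcnn1 higher (309 and 300 against 290 and 289 CPM) and Kcnd1 higher in females (68.3 against 63.4 CPM), all with overlap.

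The other 8 genes below an unadjusted p of 0.05 were not called. On the lower side the largest difference was that of the sodium-activated Kcnt2, -0.09 ± 0.028 (edgeR adjusted p = 0.094). Its gene sum was 41.2 ± 3.11 CPM in handled mice at 0 min (n = 8) and 37.9 ± 2.54 at 45 min (n = 7), and with chronic restraint 40.0 ± 2.23 (n = 8) and 37.9 ± 1.80 (n = 7). Within batches it was -0.09, -0.15, -0.01 and -0.12, and 16 of its 21 peaks were negative. The Shaker gene Kcna4 had -0.07 ± 0.031, Kcnd2, the main Shal pore of hippocampal dendrites, -0.06 ± 0.020, and Kcnq5, an M-current pore, -0.05 ± 0.023. On the higher side were Kcnt1 with 0.06 ± 0.025, Kcnab2 with 0.05 ± 0.017, Kcnh2 with 0.05 ± 0.020 and Kcnip2 with 0.04 ± 0.015. Of the 15 peaks of Kcnab2, whose product binds Kv1 pores, 13 were positive, but 7 of the 15, its start peak among them, overlap Chd5 or Nphp4. At Kcnip2 5 of 18 peaks overlap Oga or Armh3. The KChIP genes, whose products bind Kv4 pores, had differences of both signs, with 0.02 for Kcnip1, 0.04 for Kcnip2, -0.02 for Kcnip3 and -0.05 for Kcnip4.

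**Figure D4:**
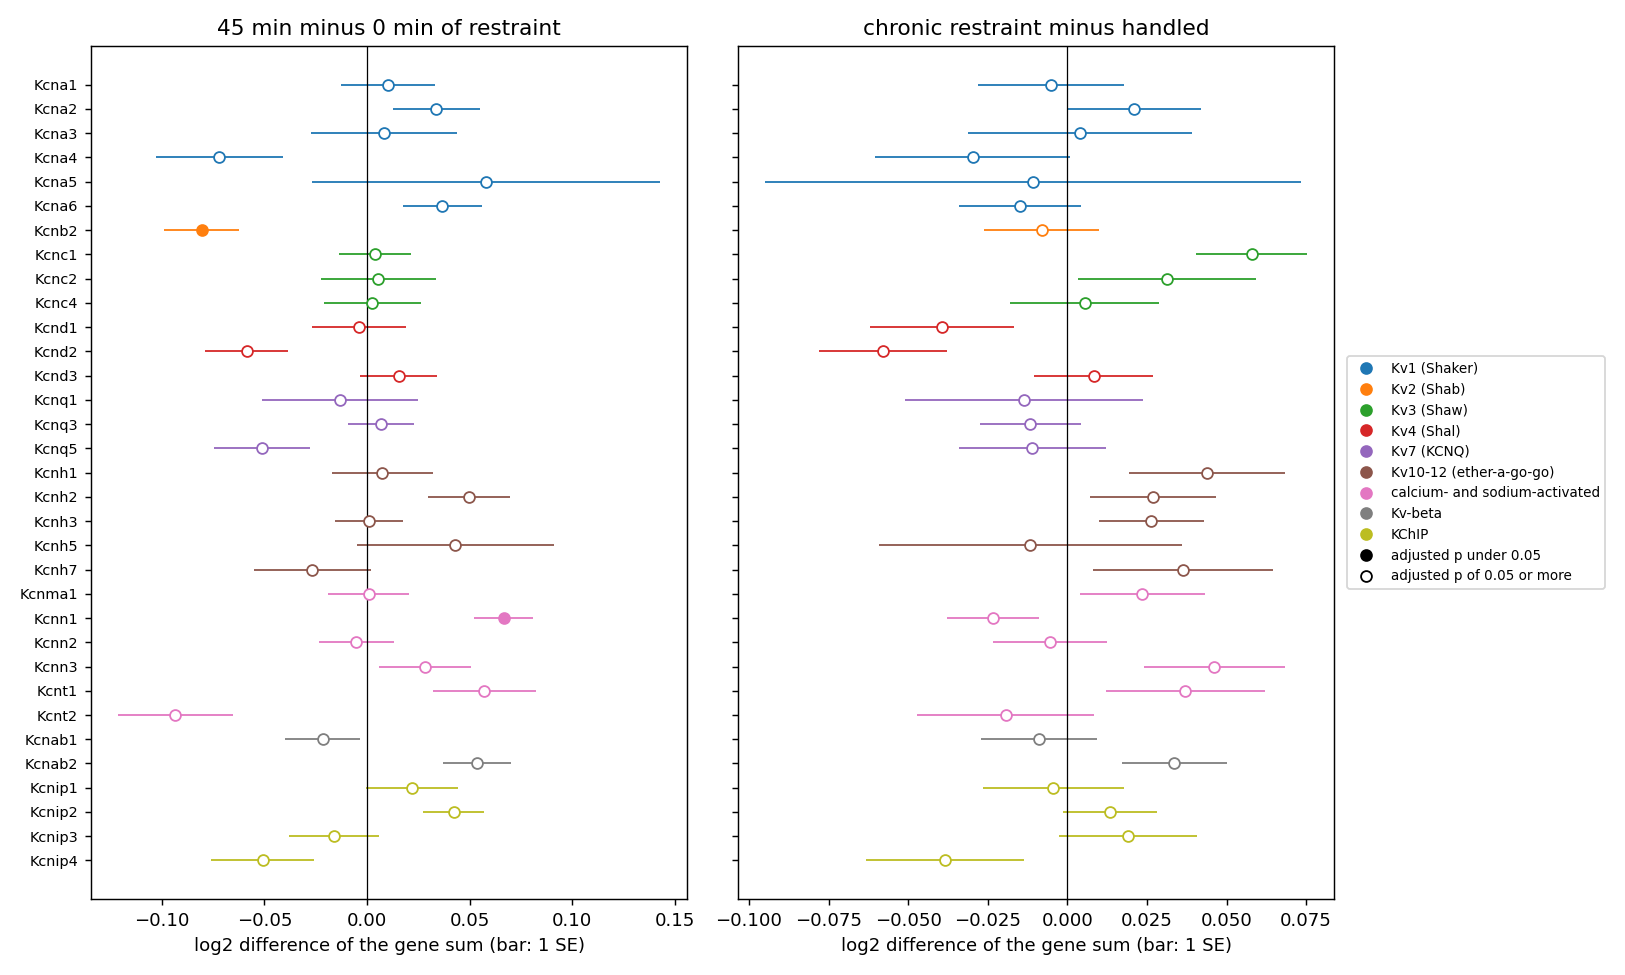
Log2 difference of the gene sum for each of the 33 genes, with 1 SE as bars, for acute restraint averaged over histories (left) and chronic restraint averaged over times (right); filled points have an adjusted p under 0.05. Only Kcnb2 (-0.08) and Kcnn1 (0.07) are filled, both on the left.

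No single peak of the 1275 was called for acute restraint, against 0.116% of all 257143 tested peaks. At an unadjusted p under 0.05 there were 38 higher (2.98%, against 3.11% of all peaks) and 40 lower (3.14%, against 4.06%), shares near those of all peaks. Under other settings the count of calls ran from 0 to 3, and DESeq2 and limma-voom gave 0. By subfamily, the median difference was 0.02 for Kv1, -0.07 for Kv2, 0.00 for Kv3 and Kv4, -0.01 for Kv7, 0.00 for Kv10-12, -0.00 for the calcium- and sodium-activated genes and 0.01 for Kv-beta and KChIP.

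Other members carried the next smallest p-values for peaks. The peak of Kcnh1 at chr1:192297662-192298287, inside the gene of the ether-a-go-go channel Kv10.1, had 1.368, 1.501 and 1.765 CPM (lowest, median, highest) in handled mice at 0 min and 1.23, 2.03 and 2.76 at 45 min. With chronic restraint it was 1.31, 1.57 and 1.85 at 0 min, and 1.55, 1.99 and 2.47 at 45 min. Most 45 min libraries were high, but in handled mice they also spread below the 0 min range, and the difference was 0.36 ± 0.094 (edgeR adjusted p = 0.102). It was 0.41, 0.29, 0.39 and 0.31 within batches.

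The peak of Kcnt2 at chr1:140489870-140490584 had 1.98, 2.60 and 3.27 CPM in handled mice at 0 min and 1.52, 1.89 and 2.65 at 45 min. With chronic restraint it was 1.52, 1.98 and 2.75 at 0 min and 1.68, 2.07 and 2.26 at 45 min, a full overlap. The averaged difference was -0.30 ± 0.089 (edgeR adjusted p = 0.222). In handled mice it was -0.52 ± 0.125 (edgeR adjusted p = 0.193) and in chronically restrained mice -0.08 ± 0.126. The difference between the histories was 0.43 ± 0.18 (edgeR unadjusted p = 0.0167) and was not called. With the share of counts in the strongest 1% of peaks as a covariate, the handled difference was -0.52 and was called (edgeR adjusted p = 0.0371). Kcnip4, another Kv4 partner, had -0.26 ± 0.077 at chr5:49255644-49256313 (adjusted p = 0.245).

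Peaks with positive differences were Kcnq3 at chr15:66264148-66264374 (0.44 ± 0.13, adjusted p = 0.257), Kcnip1 at chr11:33786624-33786902 (0.41 ± 0.13, adjusted p = 0.314) and Kcnma1 at chr14:23828518-23829907 (0.19 ± 0.063, adjusted p = 0.328). The peak of Kcnip1 had 0.68 ± 0.18 in handled mice (edgeR adjusted p = 0.344) and 0.13 ± 0.19 in chronically restrained mice, and the difference between them was not called (-0.55 ± 0.26, unadjusted p = 0.0392 and adjusted p = 1). Without animal 45 it was 0.47 on average (adjusted p = 0.0747) and 0.83 in handled mice, where it was then called (adjusted p = 0.0327).

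Among the strongest start or gene-end peak of each member, that of Kcnn2, the SK2 channel of hippocampal pyramidal cells, was the only one below an unadjusted p of 0.05. It lies at a gene end, with no start listed, and had -0.20 ± 0.065 (edgeR adjusted p = 0.318). Within batches 1 to 4 it was -0.16, -0.20, -0.08 and -0.43, and animal 45 is in batch 4. The next by p was the start peak of Kcna4 at chr2:107289796-107291742 with -0.10 ± 0.050 (adjusted p = 0.709). The start peaks of Kcnab2 and Kcnn3 had 0.07 ± 0.040 and 0.06 ± 0.036 and that of Kcnt2 -0.09 ± 0.052. The gene-end peaks of Kcnd1 and Kcnt1 had 0.06 ± 0.041 and 0.05 ± 0.034.

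**Figure D5:**
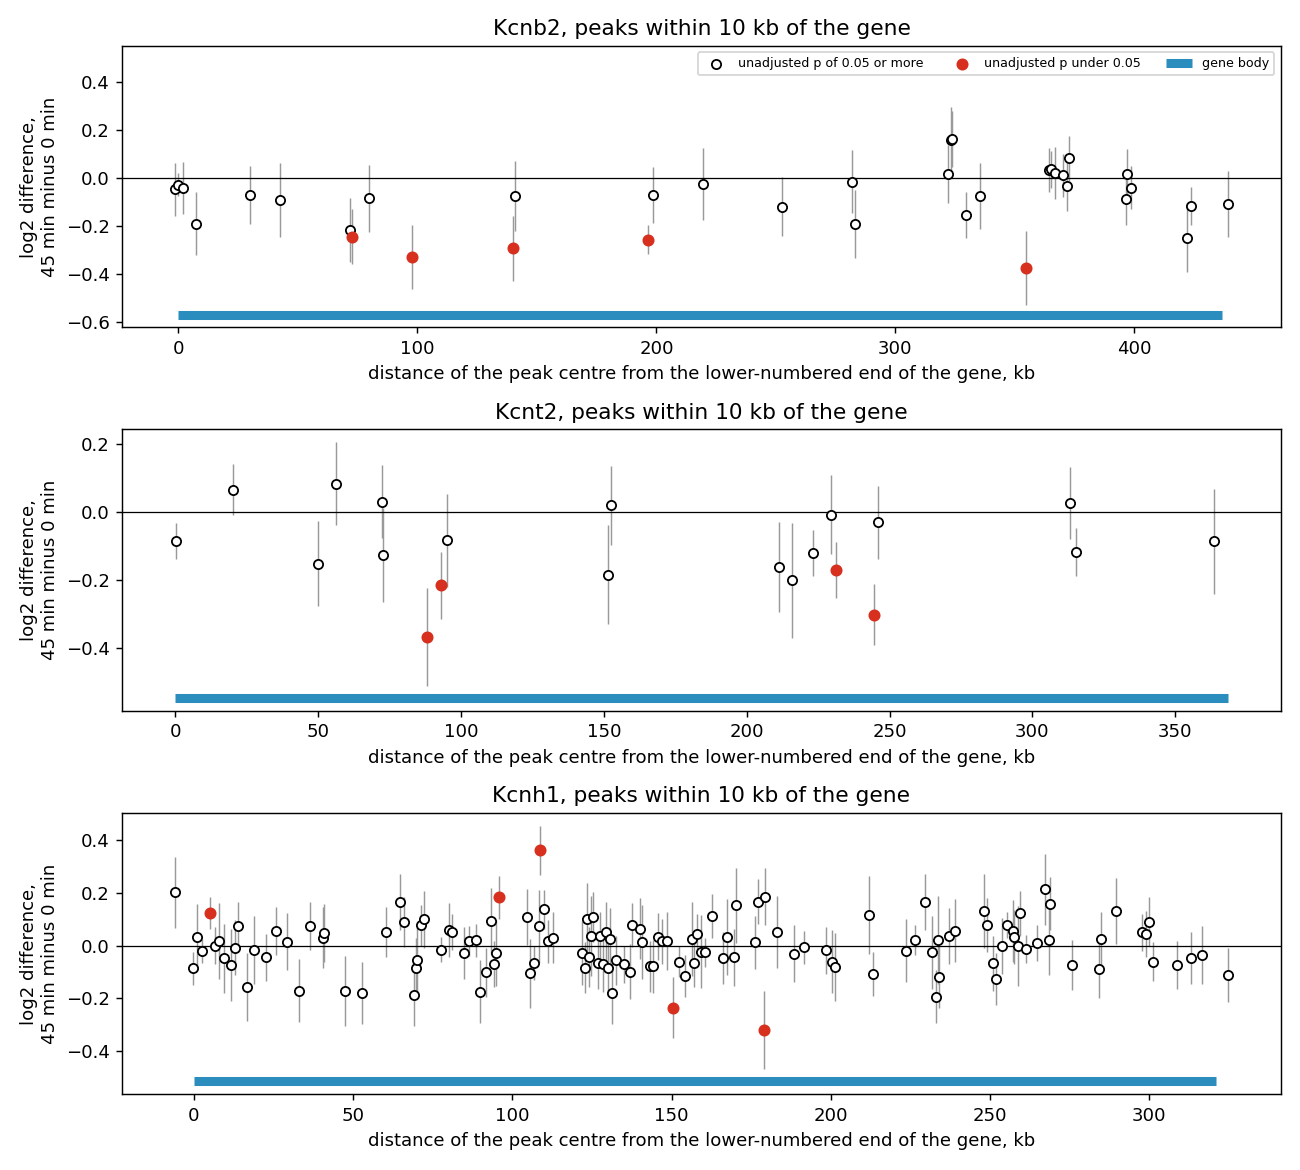
Log2 difference of each peak (45 min minus 0 min, bars 1 SE) of Kcnb2, Kcnt2 and Kcnh1 against its distance in kb from the lower-numbered end of the gene; the blue bar is the gene body and red points have an unadjusted p under 0.05. At Kcnb2 27 of 36 peaks and at Kcnt2 16 of 21 lie below 0, whereas Kcnh1 has 69 above and 66 below.

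Within a single history fewer tests passed in the whole table. In handled mice acute restraint called 0 member peaks (against 0.0109% of peaks) and 0 member genes (against 0.109% of genes). In chronically restrained mice it called 0 member peaks (against 0.00272%) and 0 member genes (against 0.0401%). At an unadjusted p under 0.05 edgeR gave 37 higher (2.90%, against 2.24% of all peaks) and 45 lower member peaks (3.53%, against 3.28%) in handled mice, with 2 genes higher (6.1%, against 3.49%) and 4 lower (12.1%, against 4.29%). In chronically restrained mice it gave 29 higher (2.27%, against 2.42%) and 26 lower peaks (2.04%, against 2.32%), with 3 genes higher (9.1%, against 3.30%) and 1 lower (3.0%, against 3.20%). The shares of peaks lay near those of all peaks. DESeq2 called 1 member gene in handled mice, Kcnn1. The 2 histories were compared by the interaction, which called 0 member peaks and 0 member genes (against 0% of peaks and 0% of genes), with 29 higher (2.27%, against 1.70% of all peaks) and 18 lower member peaks (1.41%, against 1.33%) below an unadjusted p of 0.05. No member gene was below it in either direction, against 0.773% of all genes higher and 0.799% lower. The interaction of Kcnb2 was -0.02 and that of Kcnn1 -0.04 on the log2 scale (unadjusted p = 0.62 and 0.222).

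A marker of another cell type moved with acute restraint. The gene sum of Mobp, an oligodendrocyte myelin gene, rose by 0.17 ± 0.022 (edgeR adjusted p = 1.78e-05), the only one of the 6 oligodendrocyte markers and of the markers of all 9 lists that was called. None of the other oligodendrocyte markers was called. The median difference of the 6 was -0.03. The summed level of those 6 was 575.7 to 680.9 CPM at 0 min and 616.0 to 677.9 at 45 min. The part of cell composition in the channel results was not tested.

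Chronic restraint left no called difference at the channel genes. At 0 min it called 0 member peaks and 0 member genes (against 0% of peaks and 0% of genes), and so it did at 45 min (0% and 0%) and averaged over both times (0% and 0%). At an unadjusted p under 0.05 edgeR gave, at 0 min, 23 higher (1.80%, against 1.90% of all peaks) and 30 lower member peaks (2.35%, against 2.70%), 1 higher gene (against 2.64%) and 1 lower (against 2.63%). At 45 min it gave 37 higher (2.90%, against 1.94%) and 25 lower peaks (1.96%, against 1.84%), 0 higher genes (against 2.39%) and 1 lower (against 2.14%). Averaged over times, edgeR gave 33 higher (2.59%, against 2.36% of all peaks) and 33 lower member peaks (2.59%, against 3.08%) at an unadjusted p under 0.05. Among genes 3 were higher (9.1%, against 4.99%) and 1 lower (3.0%, against 4.23%). DESeq2 also called 0 members. The median difference of the member peaks was -0.00, as for all peaks.

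The Shaw gene Kcnc1, whose Kv3.1 channel supports fast firing of interneurons, had the smallest p among genes. Its sum was 209 ± 10.9 CPM in handled mice at 0 min (n = 8) and 214 ± 6.93 at 45 min (n = 7), and 220 ± 8.35 and 219 ± 10.4 after chronic restraint (n = 8 and 7). The difference was 0.06 ± 0.017 (edgeR adjusted p = 0.359). The Shal gene Kcnd2 was the one lower, with -0.06 ± 0.020 (adjusted p = 0.388), and Kcnn3 and Kcnab2 had 0.05 ± 0.022 and 0.03 ± 0.016. Among single peaks, the smallest p-values were those of Kcnh1 at chr1:192487696-192488708 (0.32 ± 0.087), Kcnn3 at chr3:89593967-89595319 (0.28 ± 0.079), Kcnc1 at chr7:46444134-46444701 (0.34 ± 0.10) and Kcnh5 at chr12:75064592-75064815 (-0.49 ± 0.15), all with edgeR adjusted p of 0.824 or 0.857. The peak of Kcnc1 lies outside its body and overlaps Sergef. The difference at the peak of Kcnh5 was -0.12, -0.46, -0.27 and -1.15 within batches 1 to 4, and animal 45 is in batch 4. Kcnma1 at chr14:23904233-23905930 (0.19 ± 0.064), Kcnd3 at chr3:105648832-105649160 (0.38 ± 0.13), Kcnt2 at chr1:140317783-140318150 (0.31 ± 0.11) and Kcnab2 at chr4:152375130-152381556 (0.13 ± 0.044, overlapping Chd5) followed with an adjusted p of 0.897.

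Females and males differed at 1 member gene and 0 member peaks, against 0.303% of genes and 0.0350% of peaks. Below an unadjusted p of 0.05 edgeR gave 31 member peaks higher in females (2.43%, against 3.05% of all peaks) and 37 lower (2.90%, against 2.32%), so that lower peaks were the more frequent among the members and higher ones among all peaks, a difference not tested. Of the genes 1 was higher (3.0%, against 3.43%) and 2 lower (6.1%, against 3.30%). The gene was the X-linked Kcnd1, which codes for Kv4.1. Its sum was lowest at 60.0, median 69.7 and highest 72.7 CPM in 15 females, and 58.6, 63.1 and 68.3 in 15 males, so that the sexes overlapped while most females were higher. The difference, female minus male, was 0.11 ± 0.023 on the log2 scale (edgeR adjusted p = 0.0087), and 0.06, 0.11, 0.10 and 0.18 within batches. Without animal 45 it was 0.11 (adjusted p = 0.0041). Of the 10 peaks in the window of Kcnd1, 9 overlap Gripap1 or Otud5, and the strongest (chrX:7839708-7843041, 35.7 CPM) lies outside its body at Otud5, whose own gene sum had 0.12 ± 0.024 (adjusted p = 0.0085). Over peaks that touch the body of Kcnd1 the difference was 0.09 and was not called (adjusted p = 0.709). It was also not called without batch 2 or batch 4, and the adjusted p ran from 7.86e-05 to 0.709 over 16 alternatives.

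Among 27 related genes outside the member list, the silent Kv subunits (10 genes, 126 peaks), the KCNE subunits (4 genes, 24 peaks) and the beta and gamma subunits of the large-conductance channel (6 genes, 53 peaks) had 0 called peaks and 0 called genes for acute restraint, against 0.116% of all peaks and 1.10% of all genes. Of the 437 peaks of 7 other Kv partners 1 was called, against the same 0.116% of all peaks. It lies in Cntnap2, which anchors Kv1 channels beside the node of Ranvier, at chr6:45413668-45413974, and fell by 0.55 ± 0.13 on the log2 scale (edgeR adjusted p = 0.046).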

How the data were processed

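The deposited table holds raw counts, as whole numbers per region, for 1 set of regions common to 30 libraries, and 2 further columns that matched no sample were not used. The build is GRCm38, and Genrich 0.6.1, Picard, Bowtie2 and Trimmomatic are listed without their roles, per the submitters' processing notes. How regions were combined, what was counted (reads, fragments or insertions) and whether region starts count from 0 or 1 are not given in the sources used here. Coordinates are printed as deposited.

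Members, subfamilies and the related and marker lists were chosen with earlier results of these data known. Regions were assigned with GenomicRanges 1.54.1 in R 4.3.3 to the RefSeq (GRCm38.p6) body of each gene extended by 10 kb. Gene sums add the counts of all such regions for every RefSeq gene, and a region shared by several genes counts for each. Counts were fitted in edgeR 4.0.16 (filterByExpr, which removed 6 regions, TMM, estimateDisp, robust glmQLFit) on group, sex and batch over all 30 libraries, with F-tests adjusted by Benjamini-Hochberg over 257143 regions or 34935 gene sums. Levels are TMM-scaled CPM, with factors estimated separately for regions and for gene sums, so the 2 scales are not compared. The SE is that of the fitted log2 difference. Nothing in the sources used here says that libraries share an animal, and p-values measure the spread between these libraries. Median regions had 58.97 counts per library, which limits the precision of single peaks.

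For each member the rule named the strongest start or gene-end peak (within 1 kb), the peak of smallest p for acute and the one for chronic restraint. The text gives the 8 of each with the smallest p, every called member, and the highest and lowest start or gene-end peak per kb of each subfamily. The script was tested on simulated data. DESeq2 1.42.0 and limma 3.58.1 were among the 19 alternative settings.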

Additional observations from a re-analysis of the deposited data

Results flagged for a closer look

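The highest and lowest library of each group was compared with the rest of its group by Dixon's test, for 40 subfamily sums and 132 gene sums by group. Of these 172 groups 15 held a library past the 95% limit, where chance flags about 1 in 20. Animal 45 (handled, 0 min) gave 7 of them. It was low for the calcium- and sodium-activated sum (1390 CPM, next 1537), the KChIP sum (522.5, next 545.8), Kcnn3 (211.6, next 247.0), Kcnip3 (178.0, next 209.3), Kcnt1 (97.33, next 111.8) and Kcnh2 (82.44, next 91.68), and high for Kcnh5 (17.67, next 13.1). Peaks covered 47.2% to 65.0% of the windows of those 4 low genes and 0.8% of that of Kcnh5.

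Animal 59 (handled, 45 min) gave 3, all high: the Kv-beta sum (825.3 CPM, next 767.3), Kcnab2 (693.2, next 632.2) and Kcnc1 (228.6, next 213.8). Kcnc1 was also high in animal 63 (chronic restraint, 0 min; 238.0 CPM, next 223.3), and Kcna1 in animal 39 (handled, 45 min; 64.33, next 59.12). Low values were those of Kcnh7 in animal 51 (chronic restraint, 0 min; 19.63 CPM, next 22.23), Kcnip2 in animal 18 (handled, 45 min; 174.7, next 184.1) and Kcnn3 in animal 1 (handled, 45 min; 240.9, next 255.5). No member was called for the interaction of acute and chronic restraint.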

How the results depend on the processing

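Of 355 counts and medians recomputed under the 19 settings 333 stayed within 1.5 times the reported count or within 1 SD of the median, and of 911 values of named genes and peaks 859 kept their direction and side of the threshold. Gene bodies only and flanks of 50 kb change gene sums but refit no single peak, so values of named peaks could not change there. Most named results were not called in the main fit, so keeping their side of the threshold says little for them. For acute restraint, called member peaks went from 0 to 3 when the share of the strongest peaks was a covariate, and to 1 with total count scaling, without animal 45, in males only and with flanks of 50 kb. Called member genes went from 2 to 5 with that covariate, to 1 without batch 1, without batch 4 and without peaks over 5 kb, and to 0 without batch 2, in females only and in males only. In handled mice, called peaks went from 0 to 2 with the covariate and to 1 without animal 45 and with flanks of 50 kb, and called genes to 1 with DESeq2 and with the covariate. For sex, called peaks went from 0 to 1 without batch 4, and called genes from 1 to 0 on gene bodies only and without batch 2 or 4. The median chronic difference of member peaks was 0.022 in females only. Fewer libraries were fitted where a batch or sex was left out, and for other settings the cause was not tested. No paired analysis was possible because no animal number occurs in more than 1 group.

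Directions reversed only for peaks that were not called. The acute differences that did so became, for the peaks named for their chronic difference, -0.055 (Kcnh1), 0.084 (Kcnh5) and -0.063 (Kcnt2) in males only, 0.0079 (Kcnc1) and 0.028 (Kcnma1) in females only, -0.014 (Kcnh1), 0.022 (Kcnma1) and -0.014 (Kcnab2) without batch 2, 0.010 (Kcnd3) and -0.025 (Kcnt2) without batch 3, -0.030 (Kcnn3) without batch 4 and -0.00034 (Kcnn3) without animal 45.

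The chronic differences that did so became, for the other named peaks, 0.012 (Kcnn2), 0.0036 (Kcna4), 0.032 (Kcnab2), 0.037 (Kcnb2), -0.12 (Kcnh1) and -0.019 (Kcnma1) in males only, and -0.017 (Kcnn3) and 0.29 (Kcnq3) in females only. Without batch 2 they were -0.010 (Kcnn3), 0.0050 (Kcnip1) and -0.0072 (Kcnma1), without batch 3 -0.011 (Kcnn3) and 0.025 (Kcnt2), and without batch 4 0.0093 (Kcnab2), 0.0083 (Kcnt2) and 0.0048 (Kcnq3). Without animal 45 they were 0.022 (Kcnab2), 0.021 (Kcnt2) and 0.0018 (Kcnb2), and for Kcnt2 0.0014 with the covariate and 0.0087 with total count scaling.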

Other observations

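Long and short members differed in the sign of the acute difference, a split looked at after the values were seen. Of 14 members over 250 kb 5 had a positive gene sum difference (median -0.02 on the log2 scale), of 6 members of 50 to 250 kb 5 (median 0.02) and of 13 under 50 kb 11 (median 0.01). Among all protein coding genes the positive share was 24.8% of 715 genes over 250 kb, 44.9% of 4036 between and 57.9% of 12882 under 50 kb. Across genes, Spearman's rho of length and acute difference was -0.564 over the 33 members and -0.155 over 17633 protein coding genes, which share the 30 libraries and are not independent. Kcnb2 (436.8 kb) and Kcnn1 (22.5 kb), the called members, lie on either side of this split. The part of gene length in either call was not tested.

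With the share of counts in the strongest 1% of peaks as a covariate, 5 member genes were called for acute restraint: Kcnb2 (-0.08), Kcnn1 (0.06), Kcnt2 (-0.09, edgeR adjusted p = 0.0368), Kcnab2 (0.06, adjusted p = 0.0327) and Kcnt1 (0.07, adjusted p = 0.049). Called genes in the whole table rose from 383 to 1647 with it, and called peaks from 299 to 1766.

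A peak between 10 and 50 kb from Kcnt1, and so outside the member rule, was called for acute restraint at chr2:25852538-25853136 (0.49, edgeR adjusted p = 0.00091). It was the only called peak among those added by the wider flanks, and was singled out after its value was seen.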
